A study of Sus scrofa with 4 samples.

Results

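Nuclear receptors form a family of transcription factors, most of which are switched by small lipophilic ligands such as steroids, retinoids, fatty acids, oxysterols and bile acids. A zinc-finger domain binds DNA, a ligand-binding domain recruits coactivators or corepressors, and many members act as heterodimers with a retinoid X receptor (RXR). In the liver they control bile acid, cholesterol, drug, glucose and fat metabolism. The genes described here are 45 receptor genes chosen by name, in a list drawn up with earlier results of these data known. All 45 were found among the 28210 annotated genes of the pig assembly Sscrofa11.1, and 43 of them are annotated as protein-coding. NR4A1 is annotated there as a pseudogene and RARG as a long noncoding RNA.

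Lactylation of lysine 12 of histone H4 (H4K12la), a modification made from lactate, was mapped by chromatin immunoprecipitation and sequencing in livers of sows in late gestation. The high bile acid group and the low (normal) bile acid group each had 1 immunoprecipitated library and 1 input library, 4 samples in all. The sex was labelled female and the cell type hepatocytes; the sources used here do not say how many sows stand behind a library. The series asks which genes the mark targets when bile acids are high, and with no replicate library no difference between the groups could be set against a spread.

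The peak list of the high library (the high list) held 28283 peaks and that of the low library (the low list) 5735, of like median fold (2.90 and 2.98) and like median width (355 and 338 bp). The fold is the enrichment over local background that the authors deposited for the summit of each peak, and q the false discovery rate of the peak against the library's own input, also theirs. In the high list 2.15% of peaks had a q of 0.05 or smaller, and in the low list 0.227%. Median support at the summit was 9 fragments for high-list peaks and 10 for low-list peaks, so most single calls rest on few fragments. Of 10 hepatocyte marker genes, 2, TTR among them, had a high-list peak within 1 kb of a gene end and 0 a low-list one, against 1.93 and 0.358 by the share of coding genes of like length, and ALB had none within 10 kb. Markers of other cell types were counted alike in the high list. Cholangiocyte markers had such a peak in 2 of 6 genes (1.13 for like length) and endothelial markers in 2 of 6 (1.01). Kupffer and myeloid markers had one in 0 of 6 (1.09), and stellate and fibroblast markers in 0 of 6 (1.14). In the low list 1 of these other markers had one, from the Kupffer and myeloid list. A peak at a gene is not a measure of its expression. Chromosome X carried 0.421 high-list and 0.0318 low-list peaks per Mb, against 10.1 and 2.18 on chromosome 1. Chromosome Y also held a listed peak. How these values bear on the label female was not tested.

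In the high list, 15 of the 45 receptor genes (33.3%) carried a peak within 1 kb of a gene end, against 18.4% of the 16303 named coding genes. In the low list 3 did (6.67%), against 3.58%. One of the ends holds the start site, but the annotation used here gives no strand, so promoters were not told apart from transcript ends. Body peaks were commoner in longer genes (68.8% of coding genes of 50 kb or more and 34.3% of shorter ones in the high list). The background was therefore also taken within 10 classes of gene length, each receptor gene being set against the coding genes of its own class. That share was 17.6% for the high list, or 7.94 genes where 15 were counted, and 3.58% for the low list, or 1.61 genes where 3 were counted.

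Gene bodies and wider surroundings gave the same order. In the high list 28 receptor genes (62.2%) had a peak in the gene body, against 45.3% of coding genes and 53.9% of those of the same length classes. In the low list 13 did (28.9%), against 15.1% and 21.4%. With 10 kb on either side added, the counts were 36 in the high list (80.0%), against 62.8% and 67.7%, and 17 in the low list (37.8%), against 22.0% and 27.5%. In each of the 3 windows and in both lists the share of receptor genes was above both backgrounds. The 10 kb window holds every gene-end and body peak, so the 3 windows share peaks and are not separate results. Counted as body peaks per 100 kb, receptor genes had 2.08 in the high list, against 1.48 for all coding genes. In the low list they had 0.401, against 0.292. Without RXRA, which carried the most peaks, the densities were 1.79 (high) and 0.292 (low). The low-list density was then that of all coding genes.

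**Figure D1:**
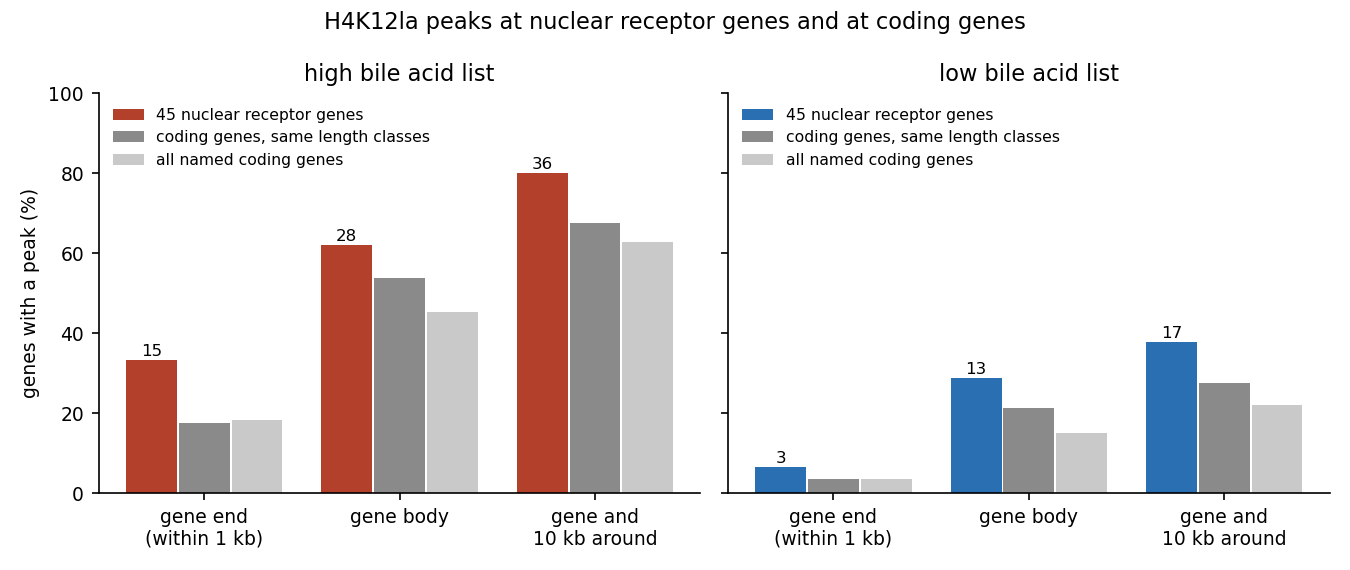
Share of genes with a peak (y axis, %) in 3 windows, for the high list (left) and the low list (right). Coloured bars are the 45 receptor genes with their number on top, dark grey bars coding genes of the same length classes and light grey bars all named coding genes; the coloured bar is the tallest in all 6 groups, 33.3% at gene ends of the high list against 18.4% of all coding genes.

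The high list is 4.93 times as long as the low list, and longer lists reach more genes. Taking only the 5735 high-list peaks of smallest p left 6 receptor genes with a gene-end peak, 17 with a body peak and 23 with a peak within 10 kb, against 3, 13 and 17 in the low list. The matching shares of all coding genes in that shortened high list were 5.19%, 16.1% and 24.1%. Lists of equal number are not at equal stringency, so this is a description of the lists.

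At gene ends 0 of the 45 were called in both lists; the share of coding genes was 0.883%, too small for this count to be told from the background. In the gene body 11 of the 45 were called in both lists (24.4%), against 10.6% of coding genes and 16.7% of those of like length. These were RXRA, PPARD, RARA, RARB, NR3C1, HNF4A, NR5A2, RORA, ESRRB, ESRRG and NR2C2. The peaks of the lists overlapped by at least 1 bp at 4 places, in RXRA, PPARD and HNF4A and beside PPARA. That is 3.03% of the 132 high-list peaks within 10 kb of a receptor gene and 16.0% of the 25 low-list peaks there, against 0.732% of the whole high list and 3.63% of the whole low list. Within 10 kb, 20 receptor genes (44.4%) had a peak in the high list only, against 46.2% of coding genes, which is close to the background. In the low list only there was 1, VDR (2.22%, against 5.42%), and 8 had none in either list (17.8%, against 31.8%). These shares are over coding genes of all lengths, and receptor genes were longer (median 41.9 kb, against 25.6 kb). In both lists there were 16 (35.6%), against 16.6% of coding genes and 22.2% of those of like length.

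**Figure D2:**
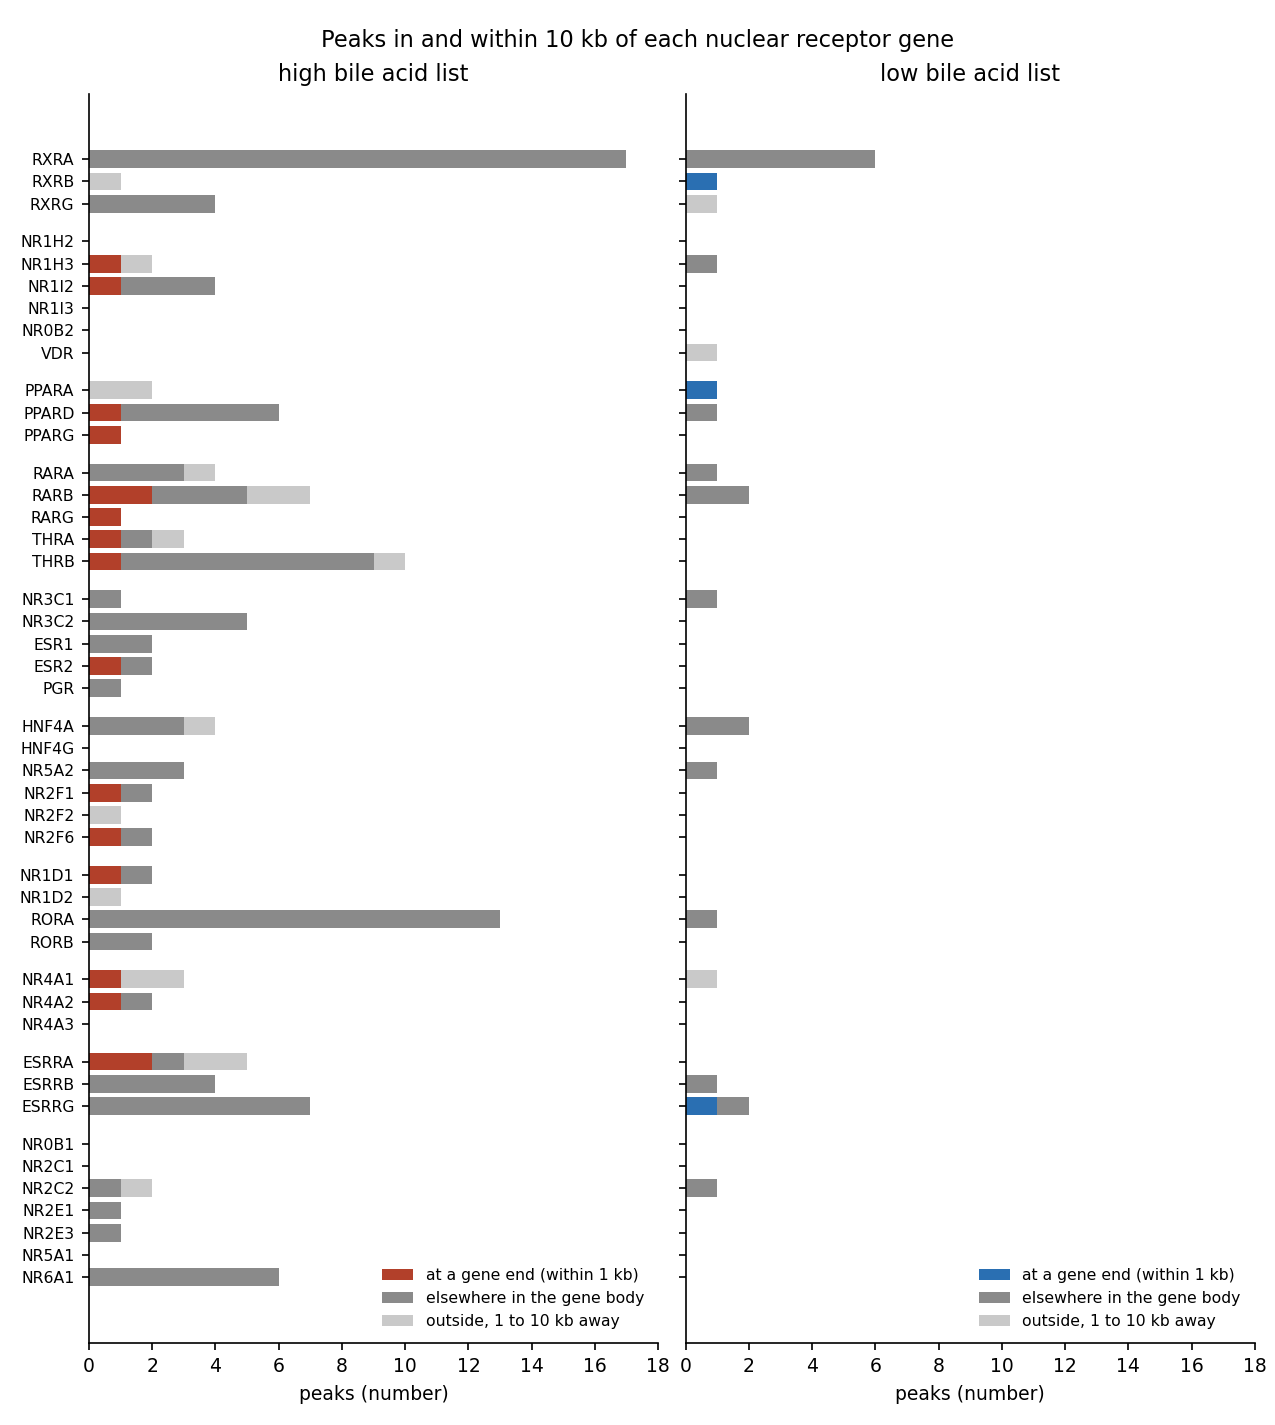
Number of peaks in and within 10 kb of each receptor gene (x axis), for the high list (left) and the low list (right), with genes grouped by role. Coloured bars are peaks at a gene end, dark grey bars other peaks in the gene body and light grey bars peaks outside; RXRA leads both panels with 17 and 6 peaks.

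RXRA carried more peaks than any other receptor gene in both lists. RXRA encodes RXR alpha, the main RXR of the liver and the partner through which the receptors for bile acids, oxysterols, fatty acids and xenobiotics bind DNA. The gene lies on chromosome 1, 273698842 to 273797622, and held 17 high-list peaks and 6 low-list peaks, all inside its 98.8 kb. Per 100 kb this was 17.2 high-list and 6.07 low-list peaks, against 1.48 and 0.292 over all named coding genes. Among 5238 named coding genes of 50 kb or more, a limit chosen after the values were seen, it ranked 1 by this density among high-list values and 3 among low-list values. By number of body peaks alone it ranked 13 and 3 of all named coding genes, ranks that it shared: 8 genes had 17 high-list body peaks and 5 had 6 low-list ones, RXRA included.

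The strongest peak of any receptor gene was the first of these, at chromosome 1, 273700465 to 273700947, 1623 bp inside the lower end of RXRA. It had a fold of 5.03 and a q of 0.00241 on 14 fragments (exact Poisson 95% interval 7.65 to 23.5) over 1.98 expected. A low-list peak of fold 2.90 lay beside it, at 273700026 to 273700359, without overlap. That peak had 11 fragments, or 9.69 on the caller's scale, over 2.69 expected on that scale. The scale multiplied low-list counts by 0.881 and left high-list counts as they were. Both lists thus had a call just inside the same end of the gene. The other high-list peaks had folds of 2.29 to 3.52 and were spread along the whole gene, covering 7.63% of it with the first. The low-list peaks had folds of 2.46 to 3.46, all with a q of 1, and 4 of the 6 fell between 273756047 and 273761590. The overlap of the lists lay at the end of that stretch, where the high-list peak had a fold of 3.36 and the low-list peak one of 3.46.

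The neighbourhood of RXRA was itself rich in peaks. In the 1 Mb centred on the gene, sequence outside it held 41 high-list and 7 low-list peaks, or 4.55 and 0.777 per 100 kb, against 1.01 and 0.218 over chromosome 1. RXRA therefore stood above its surroundings in both lists, and the surroundings above the chromosome. Base composition and mappability of this stretch were not measured, and their part in the count was not tested. At a fold of 3 or more RXRA kept 8 high-list peaks (rank 2 by density) and 2 low-list peaks (rank 21), and among the 5735 high-list peaks of smallest p it kept 4 (rank 6). At a q of 0.05 or smaller it kept 1 high-list peak (rank 79) and 0 low-list peaks.

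**Figure D3:**
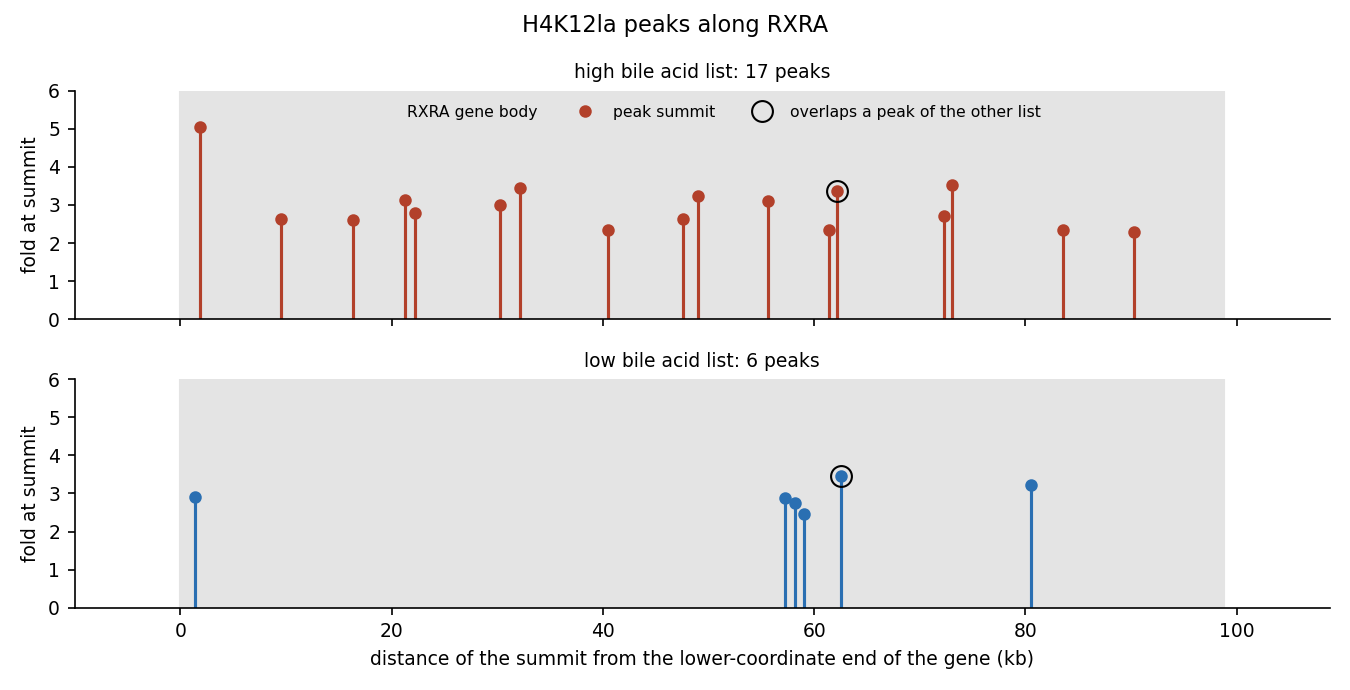
Peaks along RXRA, with the distance of each summit from the lower-coordinate end of the gene (x axis, kb) and the fold at the summit (y axis), for the high list (top) and the low list (bottom). The shaded span is the gene body and a ring marks a peak that overlaps one of the other list; both lists have a peak just inside the lower end, with folds of 5.03 and 2.90.

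The other RXR genes differed from RXRA. RXRB, which encodes the widely expressed RXR beta, had no high-list peak nearer than 7579 bp but had 1 low-list peak at its upper end, of fold 2.57 (q 1). That peak also lies at an end of SLC39A7, the neighbouring zinc transporter gene. RXRG, encoding RXR gamma, known mainly from muscle and brain, had 4 high-list peaks spread inside its 199 kb, with folds up to 3.69. Those at chromosome 4, 85199233 to 85199553 and 85201183 to 85201507, also lie in LRRC52. Its single low-list peak, of fold 3.64, lay 6171 bp outside the gene.

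Of the 6 receptors of the oxysterol, xenobiotic and bile acid circuit, 2 were called at a gene end by the high list and 0 by the low list, against 1.15 and 0.204 by the share of coding genes of like length. NR1H3 encodes LXR alpha, the oxysterol receptor of the liver. Its gene-end peak, at chromosome 2, 15314593 to 15314950, had a fold of 3.69 (q 0.139) on 10 fragments over 1.98 expected. It lies 333 bp outside NR1H3 and inside MADD, so its position does not tell these genes apart. A stronger high-list peak, of fold 4.40 (q 0.0190), lay 9482 bp from NR1H3 inside DDB2. The low list had 1 peak inside NR1H3, of fold 2.14. NR1I2 encodes PXR, the xenobiotic receptor that also senses toxic bile acids. It had 4 high-list peaks in its 32.6 kb and none in the low list, whose nearest peak was 238625 bp away. The highest of the 4, at chromosome 13, 140391417 to 140391827, had a fold of 3.39 (q 0.167), and the one at the gene end, at 140405572 to 140405979, a fold of 2.63 (q 0.402).

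The remaining genes of this circuit had few or no calls. VDR, the vitamin D receptor gene, had only a low-list peak, of fold 3.46 and 5202 bp outside the gene. NR1H2 (LXR beta), NR1I3 (CAR, the constitutive androstane receptor) and NR0B2 (SHP, the repressor of CYP7A1 induced by bile acids) had no call within 10 kb. Their nearest high-list peaks lay 22463, 25117 and 18356 bp away, and their nearest low-list peaks 216131, 524347 and 14464 bp away. These are short genes, of 2.49 kb (NR0B2), 5.47 kb (NR1I3) and 6.92 kb (NR1H2). NR1H4, the gene of the bile acid receptor FXR, is not among the 45; it likewise had no call in or around its 125 kb.

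Each gene of the fatty acid receptors, the PPARs, had a high-list peak within 10 kb, as did 62.8% of named coding genes. PPARA encodes the receptor that drives fatty acid oxidation in the fasting liver. Its low-list peak lay at chromosome 5, 3322031 to 3322601, 940 bp outside the upper end of the gene, with a fold of 3.37 (q 1). This low-list peak had 13 fragments, or 11.4 on the caller's scale, over 2.69 expected. A high-list peak overlapped it at 3322417 to 3322711, with a fold of 3.05 (q 0.232) on 10 fragments over 2.61 expected. Both libraries were thus called at this place, and PPARA enters the gene-end count of the low list alone because the high-list peak starts 1326 bp from the gene. PPARD, whose product is widely expressed, had 6 high-list peaks in its 72.7 kb (8.25 per 100 kb), with folds of 2.47 to 3.55, and 1 low-list peak of fold 3.46 that overlapped the weakest of them. PPARG, best known for fat cell differentiation, had a single high-list peak, 119 bp outside its lower end, of fold 3.02 (q 0.33), and no low-list peak.

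Of the 5 retinoic acid and thyroid hormone receptor genes, the high list called 4 at an end and the low list 0, against 0.838 and 0.177 for like length; no difference between groups of receptors was tested. RARB, a receptor gene that retinoic acid itself induces, had 2 high-list peaks at its lower end on chromosome 13, at 12335178 to 12335478 (fold 3.61, q 0.139) and 12336567 to 12336905 (fold 3.28, q 0.211), and another farther out at 12332137 to 12332718 (fold 3.69). The low list had no peak at that end. It had 2 inside the gene. The one at 12367962 to 12368372 had the highest fold of all low-list peaks of the family, 3.99 (q 0.751). This peak had 13 fragments, or 11.4 on the caller's scale, over 2.12 expected. RARB was thus called in both lists at places that do not overlap. RARG had a gene-end peak of fold 3.18 (q 0.200), which also lies in the uncharacterised gene LOC102161895.

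THRB and THRA encode the thyroid hormone receptors beta, the main form of the liver, and alpha. THRB held 9 high-list peaks in its 460 kb and none in the low list, whose nearest peak lay 386297 bp away. Its gene-end peak, at chromosome 13, 11359546 to 11359889, had a fold of 3.46 (q 0.139) and its highest internal peak one of 4.01 (q 0.0735). With 1.96 peaks per 100 kb THRB was close to the 1.48 of all coding genes. THRA overlaps the clock gene NR1D1 at its lower end on chromosome 12, and the high-list peak at 22269217 to 22269712, of fold 3.12 (q 0.232), lies at the THRA end and inside NR1D1. RARA, on the same chromosome, had no gene-end peak, but had 3 high-list body peaks up to fold 3.61 and 1 low-list body peak of fold 2.89. A high-list peak 6823 bp outside RARA had a fold of 3.90 and a q of 0.0349 on 14 fragments over 2.85 expected.

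All 5 steroid receptor genes had a high-list body peak, and 1, NR3C1, had one in the low list. ESR2, encoding estrogen receptor beta, was the single member of this group with a gene-end peak, of fold 2.78 (q 0.381). NR3C2, the mineralocorticoid receptor gene, had 5 high-list peaks in 366 kb and none in the low list. Its strongest lay 2523 bp inside the lower end, at chromosome 8, 80305695 to 80306192, with a fold of 3.88 and a q of 0.0495 on 13 fragments over 2.61 expected. NR3C1, the glucocorticoid receptor gene, had its peak of higher fold in the low list, 982 bp wide and of fold 3.93 (q 1). That peak had 12 fragments, or 10.6 on the caller's scale, over 1.94 expected. The high-list peak of NR3C1, elsewhere in the gene, had a fold of 2.75. PGR, the progesterone receptor gene, had 1 high-list peak of fold 4.03 (q 0.0735). ESR1, the gene of estrogen receptor alpha, had 2 high-list peaks of low fold (2.35 and 2.43) in 388 kb. Long genes such as these have a body peak often: 68.8% of coding genes of 50 kb or more did in the high list, against 30.7% in the low list.

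Among receptors tied to liver identity, HNF4A was called in both lists at the same place. HNF4A encodes a receptor that maintains the hepatocyte programme. The overlapping peaks, at chromosome 17, 46815606 to 46815924 in the high list and 46815787 to 46816090 in the low list, had folds of 3.12 and 2.87. They also lie at an end of LOC102159476, an annotated gene inside HNF4A. Neither list had a peak at the gene ends of HNF4A. In all HNF4A held 3 high-list and 2 low-list body peaks. NR5A2, encoding LRH-1, a receptor that promotes CYP7A1 expression, had 3 high-list body peaks, the highest of fold 3.70 (q 0.101), and 1 low-list body peak of fold 3.64 at another place.

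Within 10 kb the COUP-TF genes of this group had peaks in the high list only, as 46.2% of named coding genes did. NR2F1 had 2 in its 9.85 kb, the gene-end one of fold 2.96 (q 0.33). NR2F6 had a gene-end peak of fold 2.63 and a body peak of 2.29, and NR2F2 a peak of fold 3.41 that lay 3757 bp outside it. HNF4G had none in either list across 136 kb, with the nearest high-list peak 175643 bp away.

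The receptor genes of the circadian clock differ widely in length, and their peak numbers did not simply follow it. NR1D1, which encodes the clock repressor REV-ERB alpha, is 10.6 kb long and had 2 high-list peaks, one at its end at chromosome 12, 22263967 to 22264332, with a fold of 3.16 (q 0.214), and the one shared with THRA. NR1D2, encoding REV-ERB beta, had 1 outside, 7522 bp away. RORA, whose product competes with the REV-ERBs for the same DNA elements, had 13 high-list peaks and 1 low-list peak in 764 kb. That number placed it second to RXRA among receptor genes in the high list, but per 100 kb it was 1.70, against 1.48 for all coding genes. RORB had 2 high-list peaks, one of fold 4.03 (q 0.0735).

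**Figure D4:**
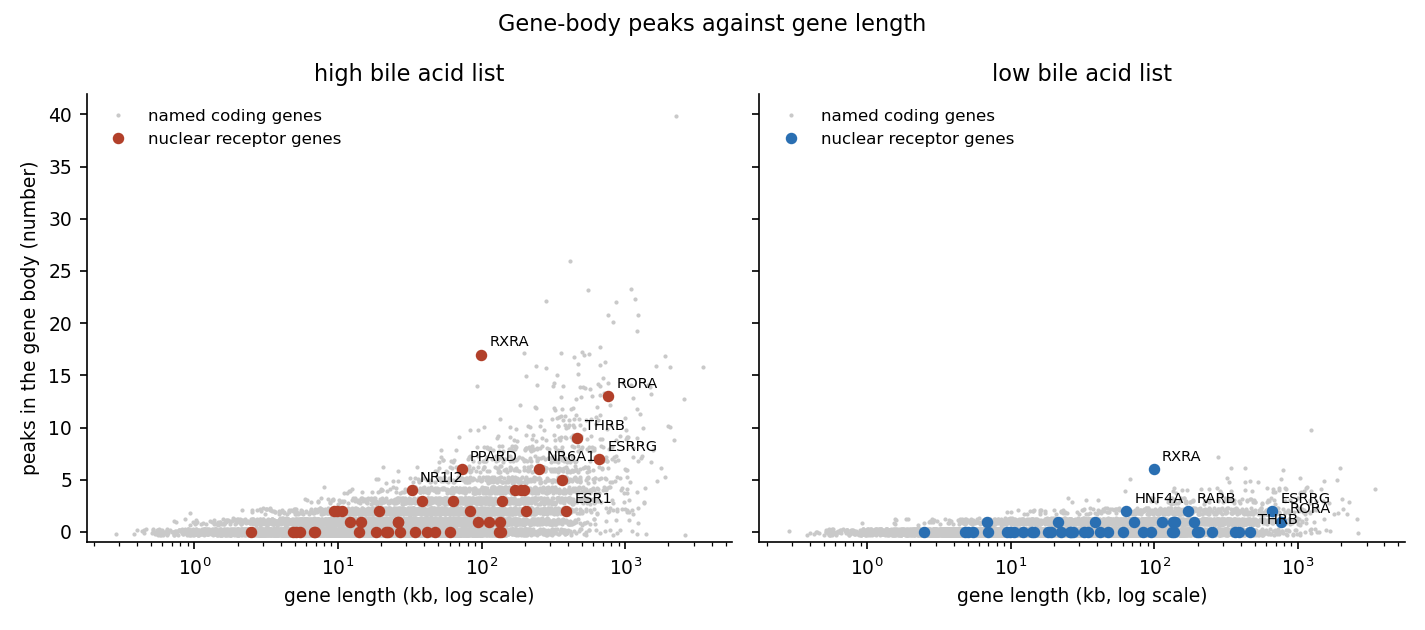
Peaks in the gene body (y axis, number) against gene length (x axis, kb, log scale) for the high list (left) and the low list (right). Grey points are named coding genes, with a small vertical scatter added, and coloured points receptor genes; RXRA, with 17 and 6 peaks in 98.8 kb, stands above genes of its length in both panels, whereas RORA, with 13 peaks in 764 kb, lies among them.

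The NR4A genes are immediate early genes, induced within a short time of a stimulus. NR4A2, encoding NURR1, had the strongest gene-end peak of the family, at chromosome 15, 63505580 to 63505922, with a fold of 3.77 (q 0.0845) on 11 fragments over 2.18 expected, and no low-list peak within 86606 bp. NR4A1, encoding NUR77, had a gene-end peak of fold 2.86 (q 0.326), and a stronger one 4605 bp outside the annotated gene, of fold 3.94 (q 0.0603). The low-list peak of NR4A1 lay on the opposite side, 3356 bp outside, with a fold of 3.44. NR4A3 had none in either list, with the nearest high-list peak 281409 bp away.

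The estrogen-related receptors are orphan receptors of energy metabolism. ESRRA, a partner of the coactivator PGC-1 alpha in mitochondrial gene control, had 5 high-list peaks within 10 kb of a gene of 9.37 kb, of folds 2.60 to 3.64, and none in the low list within 22626 bp. Both of its gene-end peaks, of folds 3.25 and 2.60, also lie at ends of TRMT112, and the locus is crowded, with PRDX5 and CATSPERZ under the outer peaks. ESRRG had the second strongest peak inside a receptor gene, at chromosome 10, 6931292 to 6931791, with a fold of 4.56 and a q of 0.0126 on 13 fragments over 2.07 expected. In the low list ESRRG had a gene-end peak, at 7371272 to 7371579, of fold 3.74 (q 1). This peak had 12 fragments, or 10.6 on the caller's scale, over 2.09 expected. The strongest calls of the lists thus lay at different places in this 661 kb gene. ESRRB had 4 high-list body peaks of folds 2.29 to 2.89 and 1 low-list body peak of 2.63.

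Of the 7 other orphans, 0 were called at an end by either list, against 1.26 (high) and 0.260 (low) for like length. NR6A1, encoding germ cell nuclear factor, had 6 high-list body peaks of folds up to 3.69 and no low-list peak. NR2C2, encoding TR4, had 1 body peak in each list, of fold 2.58 (high) and 2.60 (low), and a high-list peak of fold 3.43 outside, inside MRPS25. NR2E1 and NR2E3 had 1 high-list body peak each, of folds 2.34 and 2.37. NR2C1, NR5A1 and NR0B1 had none within 10 kb in either list. NR0B1 lies on chromosome X, which carried 0.421 high-list and 0.0318 low-list peaks per Mb in all.

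Gene-end peaks of the family rested on 8 to 11 fragments in the high list, against 10 to 13 in the low list. The fragment count of a library where a peak was not called is not in the lists, but the smallest count that would have been called can be computed. For the 17 high-list gene-end peaks the low library needed 7 or 8 fragments (6.16 or 7.04 on the caller's scale) over the same expected number. For the 3 low-list ones the high library needed 6 or 7. To compare libraries, counts were put on the caller's own scale. It multiplied those of the low library by 0.881 and left those of the high library as they were. The factor of each library was found from its own list alone, so the scaling was not set to bring the high and low libraries to equal depth. The smallest expected number of any peak on the caller's scale was 1.98 for the high library and 1.94 for the low library, which are close. Whether the scaled depths were equal was not tested. On that scale none of the 17 high-list or 3 low-list gene-end peaks had a 95% interval wholly at or above the other library's limit, so a missing call at these ends does not show a difference in H4K12la.

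**Figure D5:**
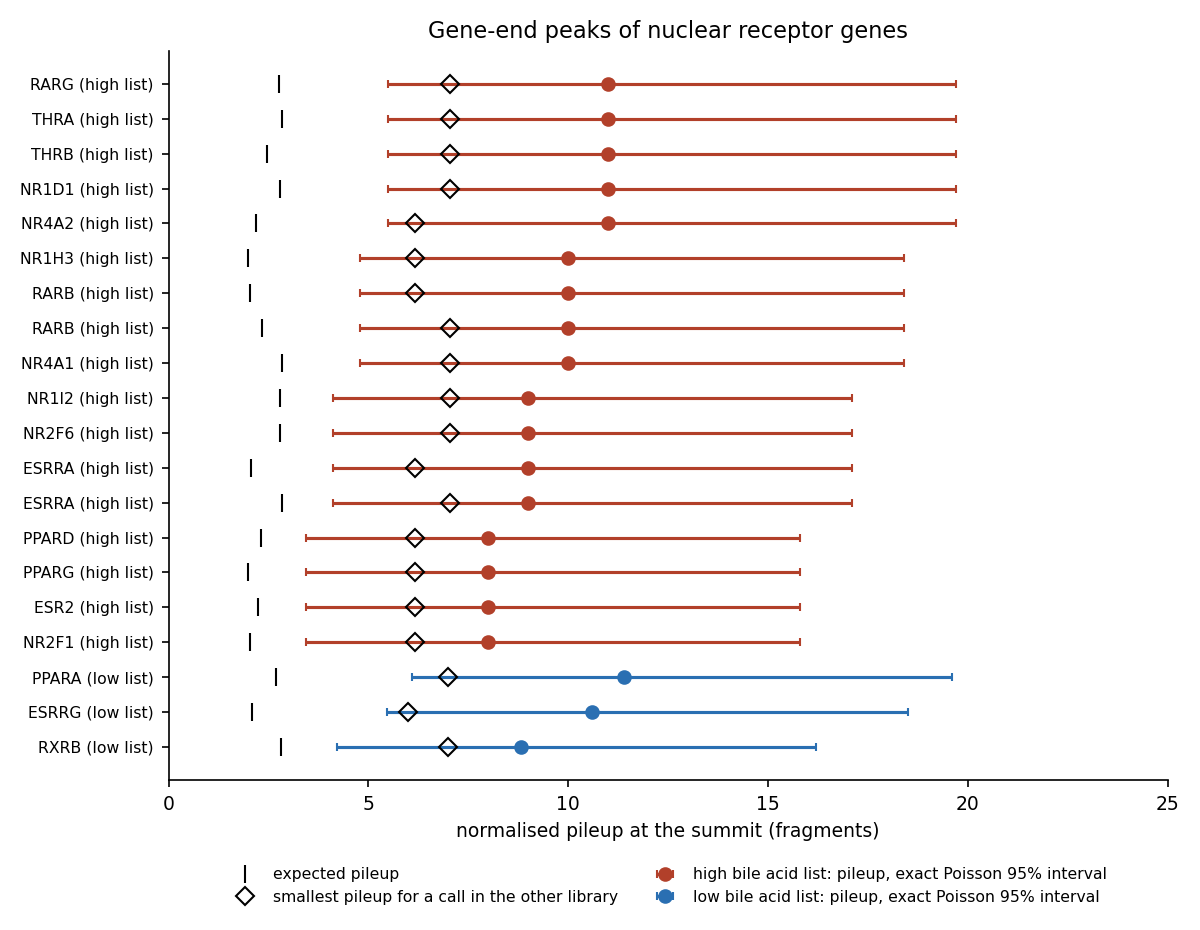
Normalised pileup at the summit (x axis, fragments) of the 17 high-list (top) and 3 low-list (bottom) gene-end peaks of receptor genes. Bars are exact Poisson 95% intervals, and the scaling was not set to equalise the depth of the libraries. Black ticks mark the expected pileup and diamonds the smallest pileup that the other library would have called; every interval reaches below its diamond.

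The same scale, which was not set to equalise depth, was used for all peaks within 10 kb. In the high list 5 of 132 had an interval at or above the low library's limit. They were the first peak of RXRA, the internal peak of ESRRG (fold 4.56) and the peaks outside NR1H3 (fold 4.40), NR4A1 (3.94) and RARA (3.90). In the low list 1 of 25 passed the high library's limit, the RARB peak of fold 3.99. In the whole lists 2.22% of high-list and 2.20% of low-list peaks passed in this way. By the caller's own measure, 5 of the 132 high-list peaks (3.79%) had a q of 0.05 or smaller, against 2.15% of the list, namely those of RXRA, ESRRG, NR1H3, RARA and NR3C2. None of the 25 low-list peaks did.

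Cofactors of the receptors were counted in the same way. Of 12 corepressor genes found, the high list called 6 at a gene end, against 2.00 by the share of coding genes of like length, and the low list 1, against 0.410. The corepressors with the highest gene-end folds were NCOR1, which encodes the corepressor that recruits HDAC3 to unliganded receptors (3.61, q 0.139), CTBP1 (3.61, q 0.120) and TBL1XR1, a subunit of the NCOR complex (3.02). HDAC3 and ZNF366, named after their values were seen, were also called there. An internal high-list peak of NCOR1, also picked after its value was seen, had a fold of 5.53 and a q of 8.75e-05 on 16 fragments, at chromosome 12, 59312518 to 59313000. The low-list gene was NRIP1 (3.46). Of 20 coactivator genes, 2 were called at a gene end by the high list, PPARGC1B (3.36) and CREBBP (2.60), against 3.49 for like length, and 1, NCOA6, in the low list (3.14), against 0.737.

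Known target genes were counted last. Targets of the bile acid receptor and SHP had a gene-end peak in 4 of 12 genes in the high list (2.28 for like length) and in 0 in the low list (0.415), led by ABCB4 (4.70), CYP7A1 (4.03) and SLC51B (3.37). LXR targets had one in 4 of 11 (2.07 for like length) and in 0 in the low list (0.423); besides NR1H3 itself they included SREBF1 (3.12) and ABCG1 (2.60). Of 12 PXR and CAR targets, 1 had one in the high list, ALAS1 (2.83), annotated as a transcribed pseudogene, and 0 in the low list, against 2.24 and 0.450 for like length. PPAR alpha targets had one in 2 of 14 in the high list (FABP1 with 3.49 and HADHA with 2.78; 2.65 genes for like length). In the low list the same number had one, CPT2 (3.74) and PLIN2 (3.15), against 0.516 for like length. Glucocorticoid receptor targets had one in 1 of 10 in the high list, ZBTB16 (3.06), and in 0 in the low list, against 1.84 and 0.345 for like length.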

How the data were processed

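Trimmomatic 0.33, Bowtie 1.1.2, MACS2 2.1.0 and bcl2fastq 2.17 are named in the submitters' processing notes, with the builds hg38 and Sscrofa11.1. The last peak of each autosome ended close to its last Sscrofa11.1 gene, so that build was used. The deposited narrow peak lists, 1 for each immunoprecipitated library, give the authors' fold (a ratio over local background), −log10 p-value, −log10 q-value and a display score, which was not used. The cutoff of the caller is not stated in the sources used here, and the largest p was 0.00989 in both lists.

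Genes were taken from the Sscrofa11.1 RefSeq table; it has no strand, so the planned start-site count was replaced by gene ends, and no sequence was used here. Overlaps needed 1 bp. Background was 16303 named coding genes, also within 10 length classes. Fragments were recovered by solving fold and p for each peak (28282 of 28283 high-list and 5734 of 5735 low-list peaks gave whole numbers within 0.002 in −log10 p), after tests on simulated data. Fragments are whole counts before scaling, and expected numbers are on the caller's scale. Intervals cover counting error only, and no spread between animals or libraries. Reads without molecular identifiers are not independent molecules, so the intervals may be too narrow even for counting error. No test between groups was possible with 1 library each.

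Named genes were every receptor gene (those without a peak within 10 kb as having none), NR1H4, and of each other list up to 3 genes by gene-end fold in the high list and all in the low list; a few genes that this rule covers are not reported here. The members and lists were chosen with earlier results of these data known. Python 3.11.15, pandas 2.3.3 and SciPy 1.17.1 were used.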

Additional observations from a re-analysis of the deposited data

How the results depend on the processing

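Counts of receptor genes were recomputed under 31 alternatives; 18 stayed within 1.5 times the value reported and 13 did not. At a q of 0.05 or smaller the high list kept 0 genes called at an end, 3 in the body and 5 within 10 kb, and the low list 0, 0 and 0; the matching shares of coding genes in the high list were 0.816%, 2.16% and 3.60%. At a fold of 3 or more, gene-end peaks in the high list fell to 9 genes (20.0%, against 9.24% of coding genes), and the low list kept 6 genes with a body peak (13.3%, against 8.17%) and 10 within 10 kb (22.2%, against 11.7%). With as many high-list peaks of smallest p as the low list holds, the counts were 6 at gene ends, 17 in bodies and 23 within 10 kb. These settings also shorten the lists, and the part of list length in the falls was not tested. A gene-end window of 3 kb gave 2 genes called in both lists (4.44%, against 2.68%), in place of 0. Leaving out the 2 genes not annotated as coding was chosen after the data were seen. It gave 13 genes called at an end by the high list (30.2%, against 18.4% of coding genes). The start-site count and its alternative were not run, because no strand was at hand. No paired analysis was possible because there is a single immunoprecipitated library per group. Single calls rest on few fragments, and the sequencing depth of the libraries is not given in the lists.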
